A study of Mus musculus with 12 samples.

Results

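The histone genes of the array series were described by class and by gene cluster. Members were every probe whose symbol, in either of the deposited probe tables, starts with Hist1h, Hist2h, Hist3h, Hist4h, H1f, H2af or H3f. This gave 116 probes for 72 gene symbols of the 31143 symbols in the tables. Of the 72, 59 are clustered genes (Hist1 to Hist4) and 13 are variants. The arrays measured 84 of the 116 probes on both chips of the study and 32 on chip 2 alone.

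The RNA came from thalamus that had been microdissected out of CD1 mouse embryos at E12.5, either wild-type (WT) or with a knockout (KO) of Gbx2, a homeobox gene of the developing thalamus. All embryos were CD1 and of 1 age, and the knockout allele is not described in the sources used here. Chip 1 held WT replicates 1 and 2, KO replicates 1 and 2, 1 WT epithalamus array and 1 WT prethalamus array. Chip 2 held WT and KO replicates 3, 4 and 5, and the labels mark both replicate 5 arrays as excluded outliers, so 4 WT and 4 KO arrays were compared. Nothing in the labels says whether replicates were separate embryos or pools, so p-values measure only the spread between these arrays.

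Histone proteins wrap DNA into nucleosomes, whose core holds H2A, H2B, H3 and H4, while H1 binds the linker between them. Most histone genes lie in clusters and are transcribed in S phase, when newly copied DNA has to be packed. Their mRNAs usually end in a stem-loop instead of a poly(A) tail, although some clustered genes also yield polyadenylated RNA in cells that have left the cycle. Variant genes such as H2afz (H2A.Z), H3f3a and H3f3b (H3.3), H2afy (macroH2A) and H1f0 (H1.0) lie outside the clusters and are expressed largely independently of replication. In the embryonic thalamus, cycling progenitors line the ventricle and neurons settle outside it. The cRNA was made with an amplification kit of a type that primes from poly(A) tails, and its part in the histone values was not tested.

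The probes are 50 bases long, and histone genes of a class are so alike that a probe for one can be close to a probe for another. Probe sequences were decoded from the sequence-coded probe names of the deposited table, in which all 84 member names passed their checksum. The sets below are those the results turn on, because neighbouring genes differ in them at few bases or in the direction of their values. The first set covers the start of the H2A coding sequence. Capitals mark bases that differ from the Hist1h2ah probe at the same place.

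Hist1h2ah (ILMN_1246108, chromosome 13): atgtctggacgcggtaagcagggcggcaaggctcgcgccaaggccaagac
Hist1h2ak (ILMN_2847144, chromosome 13): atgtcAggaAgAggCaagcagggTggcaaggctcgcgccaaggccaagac
Hist2h2ac (ILMN_1254276, chromosome 3): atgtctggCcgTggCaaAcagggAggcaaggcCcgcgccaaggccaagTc
Hist2h2aa2 (ILMN_1242167, chromosome 3): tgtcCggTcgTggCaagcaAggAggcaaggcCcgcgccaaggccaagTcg

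The second set covers the end of the H2A coding sequence, with capitals for differences from the Hist1h2ai probe. These 3 neighbours differ from it at only 2 or 3 of the bases they overlap.

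Hist1h2ai (ILMN_1238276, chromosome 13): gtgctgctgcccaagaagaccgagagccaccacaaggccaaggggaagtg
Hist1h2ad (ILMN_1226839, chromosome 13): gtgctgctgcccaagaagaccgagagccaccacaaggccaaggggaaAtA
Hist1h2af (ILMN_1219574, chromosome 13): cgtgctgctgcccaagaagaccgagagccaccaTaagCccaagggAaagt
Hist1h2ao (ILMN_2836654, chromosome 13): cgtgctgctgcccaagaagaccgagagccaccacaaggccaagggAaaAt

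The third set holds H2B probes near the start of the coding sequence, with capitals for differences from the Hist1h2bf probe within their overlap of 36 to 49 bases.

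Hist1h2bf (ILMN_2719202, chromosome 13): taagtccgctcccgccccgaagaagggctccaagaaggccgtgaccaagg
Hist1h2bh (ILMN_2716195, chromosome 13): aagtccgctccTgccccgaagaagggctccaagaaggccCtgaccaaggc
Hist1h2bk (ILMN_2636781, chromosome 13): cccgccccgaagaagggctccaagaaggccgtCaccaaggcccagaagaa
Hist1h2bn (ILMN_1257520, chromosome 13): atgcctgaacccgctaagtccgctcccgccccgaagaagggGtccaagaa

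The last sets hold the H3 probes, by name, past the threshold, compared with that of Hist1h3f, and H4 probes compared with the first Hist1h4k probe. The Hist2h2be probe is shown alone, since its longest run shared with any probe of another histone gene is 8 bases.

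Hist1h3f (ILMN_2748164, chromosome 13): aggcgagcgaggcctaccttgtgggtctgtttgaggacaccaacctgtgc
Hist1h3d (ILMN_2729958, chromosome 13): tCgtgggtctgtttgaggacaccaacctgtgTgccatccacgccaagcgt
Hist1h3h (ILMN_2698519, chromosome 13): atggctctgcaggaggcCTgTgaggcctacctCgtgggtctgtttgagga
Hist1h4k (ILMN_2525570, chromosome 13): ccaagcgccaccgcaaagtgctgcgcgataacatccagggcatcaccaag
Hist1h4k (ILMN_1243654, chromosome 13): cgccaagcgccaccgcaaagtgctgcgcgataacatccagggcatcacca
Hist1h4i (ILMN_1232524, chromosome 13): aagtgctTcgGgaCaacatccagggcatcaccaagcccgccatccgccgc
Hist2h2be (ILMN_1253851, chromosome 3): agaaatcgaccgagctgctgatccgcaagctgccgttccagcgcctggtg

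The tables themselves give 2 different names to 20 of the 84 joined probes, and for 4 of them the chip 2 name is no histone. Hist1h3f (ILMN_2748164) is Hist1h3b in the chip 2 table, Hist1h2bk (ILMN_2636781) is Hist1h2bl, and Hist1h3h (ILMN_2698519) is Hist1h3i. A value below is therefore that of a probe, and close copies of a gene cannot be told apart by it. Names are those of the joined table unless a chip 2 name is given. For 6 joined probes only the chip 2 name is that of a member, and that name is used.

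A probe was kept when it was detected, at a detection p under 0.05, on at least 4 of the 8 thalamus arrays. Of the 84 joined members 64 were kept (76.2%), against 42.02% of all joined probes, and 20 were not. The kept members were 54 clustered and 10 variant probes. Log2 values were compared between KO and WT with limma, with chip as a block, and p-values were Benjamini-Hochberg adjusted over all 13215 kept probes. A probe was called at an adjusted p under 0.05.

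Clustered histone probes were higher in the KO thalamus. Of the 54 kept clustered probes, 19 were called higher and 0 lower, whereas 1.36% of all probes tested were called higher, 1.32% lower and 2.69% in either direction. At an unadjusted p under 0.05, 40 clustered probes were higher (74.1%) and 6 lower (11.1%), against 10.6% and 10.1% of all probes tested. The median log2 fold change (KO minus WT) was 0.80 over the clustered probes and -0.004 over all 13215 probes. On both chips every KO array lay above every WT array for 35 of the 54 clustered probes (64.8%), against 10.6% of all probes. The opposite separation held for 6 of them (11.1%), against 8.97% of all probes.

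The number of calls rested on single arrays, for the clustered probes and for all probes. Without WT 1 there were 33 clustered probes called higher, without WT 2 11, without WT 3 6, and without WT 4 0. Over all probes these fits called 5.35%, 1.04%, 0.946% and 0.605% in either direction. Leaving out KO 1 gave 0 clustered probes, KO 2 gave 2, KO 3 gave 3 and KO 4 gave 1, and 0.545%, 0.779%, 0.984% and 0.454% of all probes. The median over the clustered probes lay between 0.63 and 0.98 in these 8 fits, with 44 or 45 of the 54 positive. With the excluded replicate 5 arrays added, 0 were called and the median was 0.39. Of the 19 called probes, 12 have 1 name in both tables, a count added after the data were seen.

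**Figure D1:**
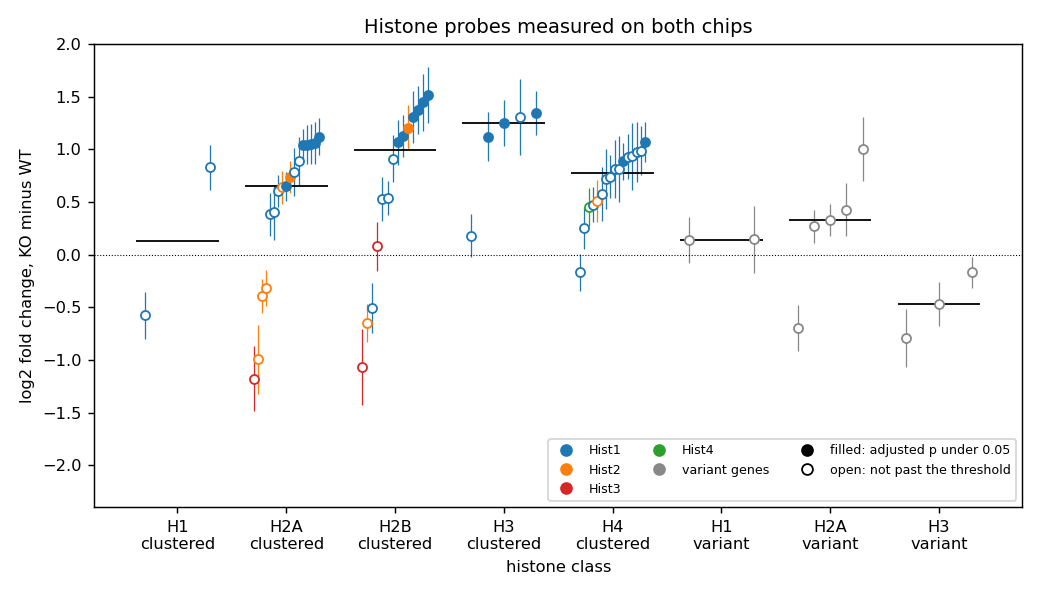
Log2 fold change (KO minus WT) of the 64 kept joined histone probes by class, with the standard error of the fit as bars, colours for the cluster, filled points for adjusted p under 0.05 and black lines for class medians. All 19 filled points lie above 0, and the lowest clustered points are of the Hist3 and Hist2 clusters.

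H2B, a core histone, had the highest values among the clustered classes with more than 5 kept probes. Of its 14 kept probes 7 were called higher, with a median of 0.99. Classes follow the probe names, so these values include the Hist2h2be probe, which carries H3 sequence. Hist1h2bf rose most, by 1.52 ± 0.27 (SE, 4 against 4 arrays, limma adjusted p = 0.024). Its log2 values were 8.50 and 7.26 on WT 1 and 2 and 9.54 and 9.55 on KO 1 and 2. On chip 2 they were 11.47 and 10.94 on WT 3 and 4 and 12.75 and 12.39 on KO 3 and 4. WT and KO did not overlap within either chip and WT 1 read higher than WT 2. The other H2B probes called higher were 2 probes of Hist1h2be (1.44 and 1.13, named Hist1h2bm and Hist1h2bp on chip 2), Hist1h2bh (1.37), Hist1h2bn (1.31), Hist2h2be (1.20) and Hist1h2bk (1.07). All 7 lay higher on every KO array of a chip than on its WT arrays. A second Hist1h2bk probe stood at 0.54 (adjusted p = 0.116).

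H2A also had 7 of 17 kept probes called higher, with a median of 0.65. The 2 Hist1h2ah probes rose by 1.12 ± 0.17 and 1.04 ± 0.19 (SE, limma adjusted p = 0.016 and 0.026). For the probe printed above the log2 values were 12.61, 12.36, 13.81 and 13.88 on WT 1 to 4 and 13.37, 13.39, 15.40 and 14.98 on KO 1 to 4. KO lay above WT on each chip without overlap. The other calls were Hist1h2af (ILMN_1219574, 1.06), Hist1h2ai (1.05), Hist1h2ak (1.04), Hist2h2aa2 (ILMN_2525605, 0.73, so named on chip 2 only) and Hist1h2ad (0.65, Hist1h2ag on chip 2). The other Hist1h2af probe (ILMN_1252136) stood at 0.60 (adjusted p = 0.070).

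Many H2A probes were among the brightest on the arrays. The highest signal ran from 37004.8 (KO 1) to 51355.8 (WT 1) on chip 1. On the kept chip 2 arrays it ran from 72270.9 (WT 4) to 73550.2 (KO 3). A share of an array's own highest signal therefore need not mark a ceiling. Of the 17 kept H2A probes 10 reached over 50% of the array's highest signal on a KO array. On chip 1 the Hist1h2ao probe reached 61.6% and 38.8% of the highest signal on WT 1 and 2, and 84.3% and 91.6% on KO 1 and 2. On chip 2 it reached 87.1% and 86.0% on WT 3 and 4, and 96.1% and 98.4% on KO 3 and 4. Its log2 fold change was 0.38 ± 0.20 (SE, adjusted p = 0.319), although it differs from the Hist1h2ai probe at only 2 bases of their overlap. The part of any signal ceiling in that difference was not tested.

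In H3, which by name leaves out the Hist2h2be probe, 3 of 5 kept probes were called higher and the median was 1.25, the highest of the classes. Hist1h3f (Hist1h3b on chip 2) rose by 1.35 ± 0.21 (SE, limma adjusted p = 0.016), from 8.90, 7.96, 10.67 and 10.57 on WT 1 to 4 to 9.89, 9.96, 11.86 and 11.78 on KO 1 to 4. Hist1h3h (Hist1h3i on chip 2) rose by 1.25 and Hist1h3d by 1.12. A second Hist1h3h probe, which has this name in both tables, stood at 0.18 (adjusted p = 0.648), and its groups overlapped on both chips. Hist1h3c stood at 1.31 ± 0.36 (SE) with an adjusted p of 0.094.

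H4 values were positive in 15 of 16 kept probes, with a median of 0.77, but only 2 were called. Hist1h4k rose by 1.07 ± 0.19 and Hist1h4b (ILMN_2525620) by 0.89 ± 0.18 (SE, limma adjusted p = 0.025 and 0.034). On the Hist1h4k probe the WT log2 values were 6.53, 5.79, 9.03 and 8.80 and the KO values 7.24, 7.38, 10.01 and 9.82. The second Hist1h4k probe printed above stood at 0.99 (adjusted p = 0.057). At an unadjusted p under 0.05, 14 of the 16 were higher. Hist1h4f (ILMN_1222313) and Hist1h4i stood at 0.81 and 0.72 with adjusted p of 0.146 and 0.194.

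Of the 6 clustered H1 probes, only those of Hist1h1b (H1.5) and Hist1h1c (H1.2) were kept, and limma called 0 of them, with 1 higher and 1 lower at an unadjusted p under 0.05. Hist1h1b stood at 0.83 ± 0.21 (SE, adjusted p = 0.074) and was detected on 2 WT and 2 KO arrays. The Hist1h1c value was -0.58 ± 0.23 (SE, adjusted p = 0.190). Its log2 values were 6.77, 6.54, 9.44 and 9.35 in WT and 6.33, 6.52, 8.05 and 8.88 in KO, so KO lay below WT on both chips, with KO 2 close to WT 2.

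By cluster, Hist1 on chromosome 13 held 17 of the 19 calls, from 42 kept probes with a median of 0.90. Of the 8 kept Hist2 probes, on chromosome 3, 2 were called higher and 4 were negative, with a median of 0.09. The Hist2h2be probe of H3 sequence is among the 2. The other, named Hist2h2aa2 on chip 2 only, shares 46 bases with a Hist1h2af probe. In Hist3, on chromosome 11, limma called 0 of 3 probes, and 2 were lower at an unadjusted p under 0.05. The Hist4h4 probe stood at 0.45 (adjusted p = 0.195). No test was made of the difference between clusters.

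The Hist3 genes Hist3h2a and Hist3h2ba had the lowest values of the clustered probes, at -1.18 ± 0.31 and -1.07 ± 0.36 (SE, adjusted p = 0.079 and 0.142). Hist3h2a read 6.71, 6.58, 7.94 and 8.18 on WT 1 to 4 and 6.03, 5.76, 5.72 and 7.19 on KO 1 to 4. Hist3h2ba read 9.66, 9.49, 9.10 and 9.69 in WT and 8.96, 8.73, 7.06 and 8.91 in KO. For both, KO lay below WT on chip 1 and on chip 2, and KO 3 was the lowest of the kept chip 2 arrays. In the deposited normalized log2 values both passed the threshold, at -0.56 and -0.74 (adjusted p = 0.019 and 0.029).

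**Figure D2:**
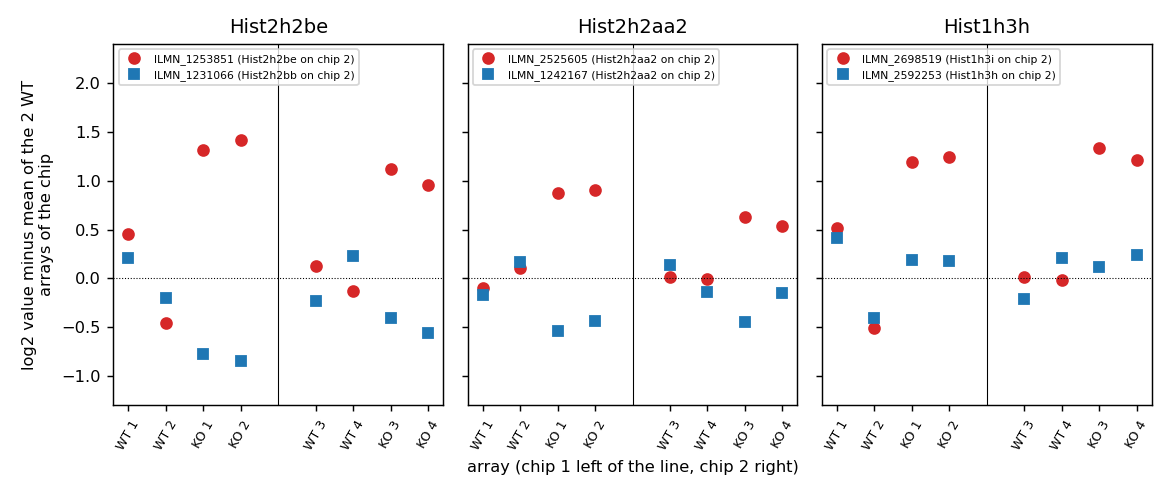
Log2 value relative to the 2 kept WT arrays' mean on the same chip for 2 probes each named Hist2h2be, Hist2h2aa2 or Hist1h3h, over the 4 WT and 4 KO arrays. The red Hist2h2be probe carries H3 sequence. For the first 2 names the red probe lies above 0 and the blue probe below 0 on all 4 KO arrays, and for Hist1h3h the red probe is the higher one there.

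Probes given to 1 gene did not always move alike. For Hist2h2be, the probe printed above, which carries H3 sequence, rose by 1.20 ± 0.21 (SE, limma adjusted p = 0.025). Its log2 values were 8.16, 7.25, 10.54 and 10.29 in WT and 9.01, 9.12, 11.54 and 11.37 in KO. The other probe, named Hist2h2bb on chip 2, read 7.51, 7.10, 9.52 and 9.98 in WT and 6.53, 6.45, 9.34 and 9.19 in KO. Its log2 fold change was -0.65 ± 0.18 (SE, adjusted p = 0.092), and KO lay below WT on both chips. The 2 probes thus separated WT from KO in opposite directions, but by sequence and by chip 2 name they cannot be read as probes of 1 gene.

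Probes given to 1 Hist2 H2A gene also differed in sign. For Hist2h2aa2 a probe that has this name on chip 2 only, and shares 46 bases with one of Hist1h2af, rose by 0.73, while the start probe in the first set read 8.47, 8.81, 11.20 and 10.93 in WT and 8.10, 8.20, 10.62 and 10.92 in KO (-0.39 ± 0.17, SE, adjusted p = 0.216). The start probe of Hist2h2ac, named Hist2h2ab on chip 2, stood at -0.32 (adjusted p = 0.330), with WT and KO overlapping on chip 2. Another Hist2h2ac probe, which keeps this name on chip 2 and shares 31 bases with a Hist1h2af probe, stood at 0.64 (limma adjusted p = 0.069). In the first set the Hist1 probes were called higher and the Hist2 probes, which differ from Hist1h2ah at 7 or 8 bases, were negative. Hist2h2aa1, on a probe that shares at most 9 bases with another histone gene's, read 7.52, 8.36, 10.81 and 10.85 in WT and 7.13, 7.01, 8.89 and 10.54 in KO (-0.996 ± 0.33, SE, adjusted p = 0.138).

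The length of sequence that a probe shares with probes of other histone genes was not used to choose the members. Member probes were compared only with each other and not with transcripts. A probe that shares no run of 20 bases can therefore still match another histone gene. The Hist2h2be probe of H3 sequence had a longest run of 8 bases. Of the 54 kept clustered probes, 30 share a run of at least 20 bases with a probe of another histone gene and 24 do not. The sharing probes held 15 of the calls, with a median log2 fold change of 0.95, and 28 of 30 were positive. The others held 4 calls, with a median of 0.49, and 17 of 24 were positive. Of these 4 calls, Hist1h3h and Hist1h4b lay just under the limit, with longest shared runs of 19 and 17 bases. Among the 24 were also Hist3h2a, Hist3h2ba, Hist2h2aa1, Hist1h2bc (-0.50, limma adjusted p = 0.264) and Hist1h1c. G and C made up a median of 62% of the bases of the sharing probes and 54% of the others. The limit of 20 bases was set after the values were seen, and neither sequence property was tested.

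**Figure D3:**
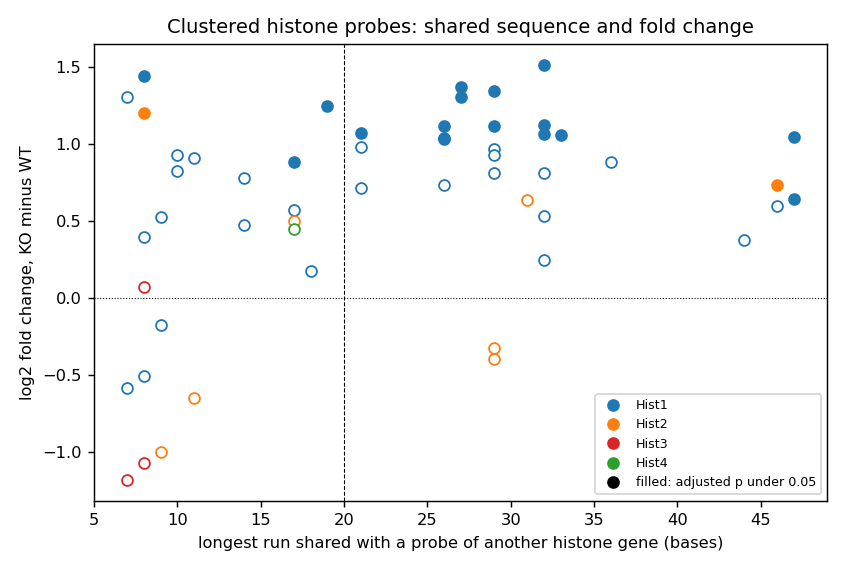
Log2 fold change (KO minus WT) of the 54 kept clustered probes against the longest run, in bases, shared with a probe of another histone gene, with filled points for adjusted p under 0.05 and a dashed line at 20 bases. Right of the line 28 of 30 points are positive, and 7 of the 9 negative points lie left of it.

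Promoters were looked up for the current gene symbols, since H2A and H2B genes of the Hist1 cluster often lie head to head. All 72 symbols matched a current gene and 64 of these genes had a promoter in RefSeq (GRCm38.p6), giving 54 promoters of clustered and 11 of variant genes. In the 250 bases before the start site, the octamer ATTTGCAT, on either strand, was found in 7 of 13 H2B promoters (53.8%) and 7 of 17 H2A promoters (41.2%). It was found in none of the 6 H1, 7 H3 and 11 H4 promoters, in 1 of 11 variant promoters (9.09%) and in 1.60% of all 32851 promoters. Divergent genes share the bases between their start sites, so 1 octamer can count in both the H2A and the H2B promoters. The octamer between Hist1h2ah and Hist1h2bk does so. CCAAT, on either strand, was found in 83.3% of the clustered promoters and 33.8% of all, and TATAAA in 46.3% and 12.4%. No motif lies inside another, but matches can overlap at their ends, and a match is a description of sequence only.

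The stretches between the start sites of 2 divergent pairs are printed, because probes that the joined table gives to all 4 genes were called higher, with their motif matches in capitals, on the plus strand. The first lies between Hist1h2ah and Hist1h2bk (chr13:22035644-22035820), with 1 octamer and 3 CCAAT matches. The second lies between Hist1h2bf and Hist1h2ad (chr13:23574208-23574380), with 4 CCAAT matches. The called probes of Hist1h2bk and Hist1h2ad are Hist1h2bl and Hist1h2ag in the chip 2 table, and the Hist1h2bk probe so named in both tables was not called.

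Hist1h2ah and Hist1h2bk: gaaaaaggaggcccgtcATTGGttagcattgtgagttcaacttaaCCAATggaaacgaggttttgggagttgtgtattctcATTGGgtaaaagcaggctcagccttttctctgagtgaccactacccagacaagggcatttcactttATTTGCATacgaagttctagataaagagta
Hist1h2bf and Hist1h2ad: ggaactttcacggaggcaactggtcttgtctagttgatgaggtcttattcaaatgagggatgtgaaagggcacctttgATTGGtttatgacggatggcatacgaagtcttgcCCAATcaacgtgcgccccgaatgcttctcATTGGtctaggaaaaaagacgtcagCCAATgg

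Variant genes were not called on the joined probes. Limma called 0 of 10 kept variant probes, with 1 of 10 higher and 3 lower at an unadjusted p under 0.05, where all probes gave 10.6% and 10.1%. Their median log2 fold change was 0.14. H1f0, the linker histone of resting cells, stood at 0.14 ± 0.32 and H1fx at 0.13 ± 0.22 (SE, adjusted p = 0.831 and 0.763). The 2 H2afy probes stood at 0.27 and 0.33. The 3 H3.3 probes were all negative, with H3f3a at -0.47 ± 0.21 (SE, adjusted p = 0.239) and H3f3b at -0.17 and -0.80 (adjusted p = 0.556 and 0.149). H3f3a read 13.28, 12.35, 14.80 and 15.02 in WT and 12.43, 12.25, 14.41 and 14.50 in KO, and the groups overlapped on chip 1. A H2afy2 probe, given to another gene (Amid) in the chip 2 table, stood at 1.001 ± 0.31 (SE, adjusted p = 0.116).

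H2afj, the gene of H2A.J, was the 1 member called among the probes found on chip 2 only. There 29 of 32 members were kept and compared between 2 WT and 2 KO arrays, and 0.552% of all 21369 probes tested were called. A H2afj probe (ILMN_2994806) read 8.53 and 7.54 on WT 3 and 4 and 4.90 and 4.86 on KO 3 and 4, where it was not well above background. The excluded WT array read 6.15 and the excluded KO array 5.26. The probe was at least 4.62-fold lower in KO (limma adjusted p = 0.020), a bound set against the lowest detected signals. Without KO 3, limma called 0 of the chip 2 members. Another H2afj probe read 10.33 and 10.08 in WT and 8.52 and 8.97 in KO (-1.46 ± 0.31, SE, adjusted p = 0.088). The joined H2afj probe stood at -0.70 ± 0.22 (SE, adjusted p = 0.119), and KO 2 read 7.06, as did WT 2.

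The 19 clustered members kept on chip 2 only had a median of 0.86, and 16 were positive. Limma called 0 of them, with 12 higher (63.2%) and 2 lower (10.5%) at an unadjusted p under 0.05, against 9.38% and 8.75% of all chip 2 probes. The largest difference upward was that of Hist1h2ad (ILMN_2795040), which read 13.47 and 13.35 in WT and 15.16 and 14.79 in KO (1.57 ± 0.30, SE, adjusted p = 0.075). Hist2h2aa1 stood at -1.46 ± 0.57 (SE, adjusted p = 0.235). H2afz, the gene of H2A.Z, stood at 0.54 on both of its probes and the 2 H2afv probes, also of H2A.Z, at 0.63 and 0.72, with adjusted p of 0.266 to 0.372.

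Genes that work with histones were read from lists chosen with earlier results of these data known. Of the chaperones and deposition factors, 4 of 16 measured genes rose and 0 fell, with a median of 0.67. Over all probes tested, 1.36% were called higher and 1.32% lower. Those called were Asf1b (1.80), Chaf1a (1.46) and Chaf1b (1.24), which hand new H3 and H4 to replicated DNA, and Rbbp7 (1.43), a histone-binding subunit (limma adjusted p = 0.027, 0.026, 0.046 and 0.027). Hira, the chaperone that deposits H3.3 outside replication, stood at -0.66 (adjusted p = 0.226). Of the histone mRNA processing factors, limma called 0 of 6, with 0 higher and 1 lower at an unadjusted p under 0.05. The smallest p-values there belonged to Lsm11, of the U7 particle that cleaves histone transcripts (-0.37), and Eri1, an exonuclease that trims their stem-loop (0.65, named Thex1 in the file). Slbp, which binds the stem-loop, and Npat, which activates histone transcription, have 1 joined probe each. Neither probe was detected on any of the 8 arrays, which does not show that the genes were silent.

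Genes of S phase were higher in the KO too. Of the S phase list 8 of 16 measured genes rose and 0 fell, where 1.36% of all probes tested were called higher and 1.32% lower. All 16 were positive and the median was 1.14. Rrm1, a subunit of the enzyme that makes deoxynucleotides, rose by 1.76, the replication helicase factor Gins2 by 1.39, E2f1 by 1.21 and Tyms by 1.09 (limma adjusted p = 0.022, 0.020, 0.026 and 0.026). The mitosis list had 3 of 9 higher, Birc5 (1.15), Top2a (0.96) and Cenpf (0.93), and 0 lower, against the same shares of all probes. The list of postmitotic neuron genes had 0 of 5 called by limma, with 1 higher at an unadjusted p under 0.05. Only 1 of the 5 was positive, and the median was -0.13. Dcx stood at 0.62 and Stmn2 at -0.39. In tissue RNA, fewer cells of a type and less RNA per cell cannot be told apart. The part of a changed number of cycling cells in the histone values was not tested.

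**Figure D4:**
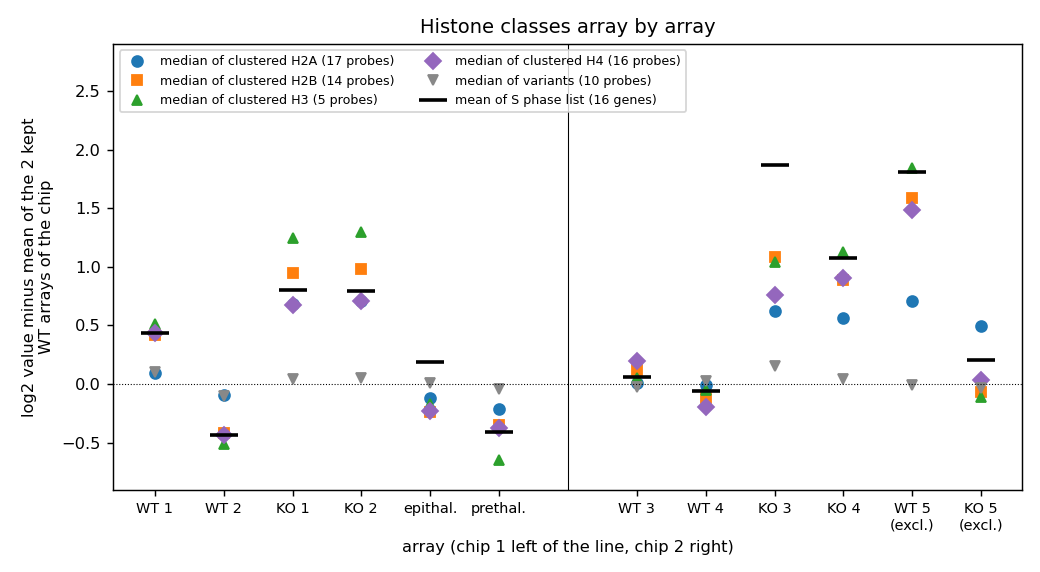
For each of the 12 arrays, the median over probes of the log2 value relative to the 2 kept WT arrays' mean on its chip, for H2A, H2B, H3, H4 and the variants, with the mean of the S phase list as a black bar. The clustered classes lie above 0 on all 4 KO arrays, on WT 1 and 3 and on the excluded WT array. The variant median of -0.10 to 0.16 joins H2A variants at 0.24 to 0.48 and H3 variants at -0.38 to -0.50 on the KO arrays.

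On all 4 KO arrays both the clustered probes and the S phase list lay above the WT mean. Measured from the mean of the WT arrays of the chip, the clustered median was 0.69 and 0.75 on KO 1 and 2 and 0.80 and 0.89 on KO 3 and 4. The WT arrays lay 0.33 above and below their mean on chip 1 and 0.07 on chip 2. Over all probes tested the same medians stayed between -0.04 and 0.03 on the 8 arrays. The S phase mean was 0.80, 0.79, 1.87 and 1.07 on KO 1 to 4.

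WT arrays differed among themselves. WT 1 read higher than WT 2 on 46 of the 54 clustered probes, with a median difference of 0.65, against 0.04 over all probes, and the S phase mean was 0.43 above the WT mean of the chip on WT 1 and below it on WT 2. The excluded WT array had a clustered median of 1.40, above each of the 4 kept KO arrays, and an S phase mean of 1.81. The excluded KO array had 0.00049 and 0.21, so its clustered median lay at the WT level. By class its medians differed, at 0.13 for H1, 0.50 for H2A, -0.07 for H2B, -0.11 for H3 and 0.03 for H4. On the Hist1h2bf probe the excluded WT array read 12.92 and the excluded KO array 11.32. The mean of the neuron list was -1.03 on the excluded WT array and between -0.18 and 0.06 on the kept arrays of both genotypes. Of the markers of other tissues, 2 that did not pass the detection filter also stood apart on the excluded WT array. The meningeal gene Lum read 9.74 there and 4.53 to 5.30 on the 8 kept arrays. Msx1, of the epithalamic list, read 9.96 there and 4.81 to 5.98 on the kept arrays. The 2 genes of that list that passed the filter, Nr4a2 and Tac1, had a mean of -0.005 there, near the WT level. The part of these differences in the genotype comparison was not tested.

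Epithalamus and prethalamus, which flank the thalamus in the diencephalon, were each measured on 1 array, so no test was possible. A probe was counted when it differed by 1 or more on the log2 scale from both WT thalamus arrays of chip 1. Of 56 members compared, 0 were counted in either direction in either region. Of all probes, 0.911% were higher and 0.663% lower in epithalamus, and 1.26% were higher and 0.89% lower in prethalamus. The clustered median depended on which WT array it was set against. For epithalamus it was -0.53 against WT 1 and 0.18 against WT 2, and for prethalamus -0.71 and -0.02. The prethalamus array lay below both WT arrays on 23 of the 46 clustered probes compared and above both on 5. Of all 12359 probes compared, 3061 lay below both and 4270 above. At a limit of 0.7, Hist1h4b (ILMN_1213257) was the 1 member lower in prethalamus, at 5.34 against 6.85 and 6.07.

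**Figure D5:**
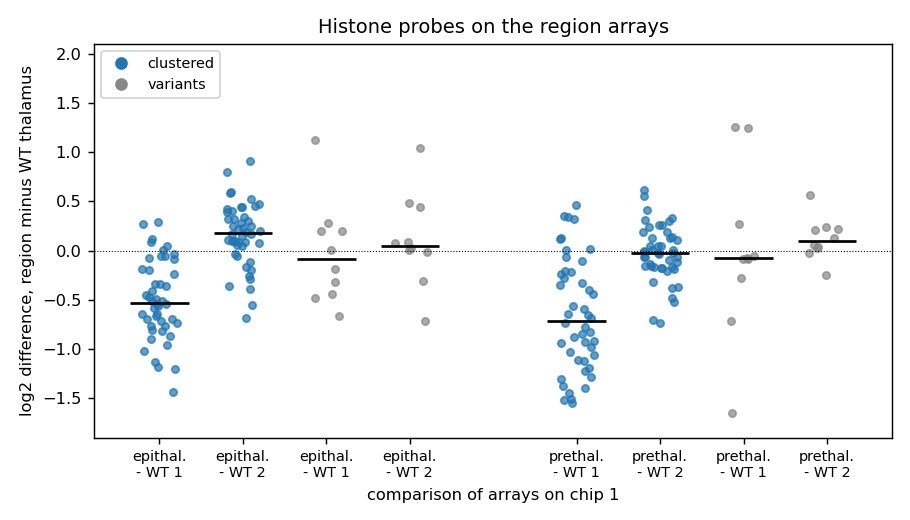
Log2 difference of the epithalamus or prethalamus array from WT thalamus replicate 1 or 2 on chip 1, for the clustered (blue) and variant (grey) probes compared, with black lines for medians. The clustered medians are -0.53 and 0.18 for epithalamus and -0.71 and -0.02 for prethalamus.

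On the arrays as a whole, 30.7% to 36.0% of the probes were detected on chip 1 and 44.8% to 46.4% on chip 2. Gbx2 itself fell by 1.29 ± 0.27 (SE, limma adjusted p = 0.042), from 13.73, 13.30, 15.95 and 15.75 on WT 1 to 4 to 13.04, 12.77, 13.75 and 14.04 on KO 1 to 4. Its transcript was thus detected in the KO, and the sources used here do not say whether the probe lies in the deleted part. It read 6.35 in epithalamus and 8.27 in prethalamus. Of the thalamus markers 5 of 6 were measured, and no joined probe was matched to Lhx2. Rora fell too (-2.98, adjusted p = 0.010), while Tcf7l2 stood at -0.99, Olig3 at 0.92 and Lhx9 at 0.06 (adjusted p = 0.138, 0.077 and 0.849). Of the markers of other tissues, 0 of 2 habenular and epithalamic (Nr4a2 at 0.76 and Tac1 at 0.63), 0 of 1 prethalamic (Gad1 at -1.50), 0 of 3 erythroid, 0 of 5 endothelial and 0 of 2 microglial genes measured were called by limma. At an unadjusted p under 0.05 these lists had 2, 0, 0, 0 and 0 genes. None of the 4 meningeal genes passed the detection filter, although Col1a1 was detected on 2 WT arrays and read 6.02 on WT 3 and 7.60 on WT 4.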

How the data were processed

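Members and gene lists were chosen with earlier results of these data known. The deposited tables hold average bead intensity, linear and not normalized per the file headers, which name GenomeStudio 1.1.1 for chip 2. The deposited detection column of chip 1 holds a fraction and that of chip 2, per the file headers, a p-value. Both columns rise with the signal, so their complement served as the detection p. BeadStudio and lumi also appear in the submitters' processing notes, with no role stated. The deposited normalized tables hold log2 values, used as an alternative for 12090 of the kept probes, with column medians of 7.14 to 7.16. The log2 scale was read from the values, and the sources used here do not state how the columns were scaled and centred. Of the 31459 joined probes 31448 were used.

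Each chip was normalized on its own with neqc (limma 3.58.1, R 4.3.3), which corrects background by normexp from the detection p, adds an offset of 16, and then takes quantiles and log2. Both tests used lmFit and eBayes, two-sided, with calls at an adjusted p under 0.05. Chip 2 probes were kept if detected on at least 2 of 4 arrays. Precision is limited by the number of arrays and, for dim probes, by signal over background. The fit was tested on simulated data.

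Named probes were those past the threshold, and in each class the 2 brightest and the largest change. For chip 2 members the rule took calls and the 3 largest changes, and for other lists up to 4 calls by p or else the 2 smallest p. Other probes were named after their values were seen. Alternatives were other normalizations, filters and blocks, 1 probe per gene, each chip alone, the excluded arrays, and leaving out each array.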

Additional observations from a re-analysis of the deposited data

Results flagged for a closer look

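For 5 of the 72 groups of 4 arrays examined, taken over 36 named probes, 1 array lay far from the others of its genotype (past Dixon's 95% critical value, as chance gives in about 1 of 20 groups). Values are log2 differences from the mean of the 4 kept arrays of the chip. KO 3 stood above the other KO arrays on both Hist1h2ah probes, at 0.881 (ILMN_1246108) and 0.743 (ILMN_2730329). KO 4 stood below the other KO arrays on Hist1h2bf, at 0.505, and on Hist1h2be (ILMN_2742592), at 0.313. WT 1 stood above the other WT arrays on Hist1h2af (ILMN_1219574), at -0.0906. In the comparison of genotypes all 5 probes were called higher.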

How the results depend on the processing

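Among the clustered probes the 19 calls became 26 with the deposited normalized values, 21 without background correction, 19 with an offset of 50, 23 among probes detected on all 8 arrays and 13 with 1 probe per gene. They became 4 without the detection filter, and 0 with no chip term, with replicate 5 included, on chip 1 alone and on chip 2 alone. Members with 1 name in both tables gave 12. Leaving out each array gave 0 to 33. With the same 54 probes tested, 43 to 45 were positive in each setting. Lower calls were 2 with the deposited values, Hist3h2a and Hist3h2ba. The variants had 1 call with the deposited values (H2afy2) and 0 to 1 on leaving out an array, H3f3b without WT 1. The clustered median of 0.80 became 0.56 with the deposited values, 0.56 without the filter and 0.39 with replicate 5. The variant median of 0.14 became 0.041 without the filter and 0.051 with replicate 5, and -0.082 to 0.22 on leaving out an array. Over all joined probes the 355 calls (180 higher, 175 lower) became 690 (392 and 298) with the deposited values and 164 (82 and 82) without background correction. They were 84 (23 and 61) without the filter, 15 (7 and 8) with replicate 5, 63 (12 and 51) on chip 2 alone, and 0 (0 and 0) with no chip term or on chip 1 alone. With an offset of 50 they were 259 (124 and 135). Leaving out an array gave 60 to 707, with 11 to 394 higher and 49 to 313 lower. The 118 chip 2 calls became 216 with the deposited values, 51 without background correction, 184 with an offset of 50, 0 without the filter, 47 on all 4 arrays and 4 with replicate 5, and 0 to 695 on leaving out an array. The 1 chip 2 member became 0 without background correction, without the filter, on all 4 arrays or with replicate 5, 2 with an offset of 50, and 0 to 2 on leaving out an array. Deposited values of chip 2 members were not run. In prethalamus 1 member, Hist1h4b, was lower at a limit of 0.7 and 1 against the mean of the WT arrays. The causes were not tested.

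Same-numbered arrays deviated with a correlation of -0.106 (replicates 1 and 2) and 0.149 (replicates 3 and 4). With 2 arrays per genotype on a chip the deviations mirror each other, so these values cannot show whether the numbers pair the arrays. With the replicate block 19 clustered probes were called higher, 17 of them shared with the fit without it, and 1 lower (Hist3h2a). Over all joined probes the block gave 457 calls (240 higher, 217 lower), on chip 2 2210, and 9 among its members.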
